A study of Mus musculus with 4 samples.

Results

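The genes described here encode proteins that bind or process U6 snRNA, most of them at its 3′ end: the 7 subunits of the LSm2-8 ring (Lsm2, Lsm3, Lsm4, Lsm5, Lsm6, Lsm7 and Lsm8), the La protein (Ssb), the U6 recycling factor Sart3 and the exonuclease Usb1. They were chosen by name, for their known contact with U6, though with earlier results of these data known. They make up 10 of the 16449 genes in the count table. Gene counts came from Nanopore long-read RNA sequencing of micro-dissected dorsal and medial palliums, the forebrain wall that gives rise to neocortex and hippocampus, from mouse embryos at E11.5. The 4 libraries were 2 of Tut1 f/f;Emx1-Cre embryos, labelled Tut1_KO, and 2 labelled WT, which the study lists as Tut1 f/f without Cre, so the floxed allele was present in both groups. Emx1-Cre is a knock-in that recombines in Emx1-expressing cells of the pallium, and cells outside that lineage in the dissected tissue keep the floxed allele. Neither the number of embryos per library nor whether replicates came from separate embryos was stated, so each p-value measures only the spread between these libraries, which may be partly technical. The WT libraries did not come from the same embryos, since 1 had counts of Xist and none of Y-linked genes and the other the reverse, whereas such counts do not separate the Tut1_KO libraries.

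U6 snRNA is transcribed by RNA polymerase III and ends in a run of uridines. La binds this run on the nascent RNA, TUT1, the terminal uridylyltransferase encoded by Tut1, lengthens it, and USB1 trims it and leaves a terminal phosphate. The LSm2-8 ring then takes over the 3′ end and helps SART3 join U6 with U4 in the U4/U6 snRNP, from which the tri-snRNP and the active spliceosome are built. LSm2 to LSm7 also form a second ring, with LSm1 in place of LSm8, that acts in cytoplasmic mRNA decapping. The comparison asked whether the mRNAs of these binders differed in abundance when the enzyme that extends the U6 tail was targeted.

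The mRNAs of 3 ring subunits, Lsm5, Lsm6 and Lsm7, have close copies elsewhere in the genome. The nearest copies of Lsm7 and Lsm5 are shown because they bear on how far the counts of these genes can be read. The processed pseudogene Gm10146 (chr10:78393320-78393628 of GRCm38, plus strand, 309 bases) is 100% identical to coding bases 1 to 309 of Lsm7, whose coding sequence has 312 bases. The first 300 bases of this stretch, the same in Lsm7 and Gm10146, are as follows.

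Lsm7 and Gm10146: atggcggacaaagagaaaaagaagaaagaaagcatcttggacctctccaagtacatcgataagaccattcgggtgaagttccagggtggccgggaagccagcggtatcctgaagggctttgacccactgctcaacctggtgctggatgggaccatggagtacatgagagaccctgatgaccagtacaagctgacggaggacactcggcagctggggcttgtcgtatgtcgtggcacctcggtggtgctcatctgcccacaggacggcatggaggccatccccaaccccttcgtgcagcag

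For Lsm5, the processed pseudogene Gm10074 (chr17:36226023-36226271, plus strand) matches coding bases 25 to 273 with 99.2% identity. Capitals mark the 2 positions at which they differ.

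Lsm5: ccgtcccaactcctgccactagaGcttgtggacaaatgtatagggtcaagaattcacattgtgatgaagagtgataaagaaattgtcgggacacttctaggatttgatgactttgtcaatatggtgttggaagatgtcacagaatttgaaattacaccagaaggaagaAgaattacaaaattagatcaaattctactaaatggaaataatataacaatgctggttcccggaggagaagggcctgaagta
Gm10074: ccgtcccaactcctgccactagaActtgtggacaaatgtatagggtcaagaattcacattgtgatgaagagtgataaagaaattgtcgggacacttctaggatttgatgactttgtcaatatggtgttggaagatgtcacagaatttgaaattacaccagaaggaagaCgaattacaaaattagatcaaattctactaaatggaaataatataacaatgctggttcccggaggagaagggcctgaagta

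A second Lsm5 pseudogene, Gm7846 (chr1:28580499-28580772), was 97.8% identical over 99% of the coding sequence. The handling of reads that map to several genes was not stated, so counts can be exchanged between Lsm7 and Gm10146 in particular.

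Few reads were counted. Totals ranged from 305642 to 397150 per library, and the 10 genes together held 361 to 481 of these counts. The study lists the same numbers of detected genes, 12442 to 13158 per library, but far more sequenced reads than these totals. Why most reads are absent from the counts was not stated. All 10 passed the filter on low counts, as did 5878 genes in all, whose median count was 19 to 25 per library. Values are given as CPM, the usual scaling of counts to a common library total, taken over tested genes with TMM factors, and each fold change (log2FC) is the log2 ratio of Tut1_KO over WT libraries from edgeR's quasi-likelihood test, with its SE.

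None of the 10 genes passed the test at an adjusted p below 0.05 (0 of 10, against 2.06% of all tested genes called in either direction). Lsm5 had an unadjusted p below 0.05 in edgeR, so the count at that level was 1 of 10, against 14.2% of all tested genes. At an adjusted p below 0.05 limma-voom also called 0. DESeq2 called 0 of the 6 genes to which it gave an adjusted p, and its filter on low means left out Lsm4, Lsm6, Lsm8 and Usb1. Log2FC values were above 0 for 3 genes and below 0 for 7, with a median of −0.05 beside −0.01 over all tested genes, and 6 and 4 with libraries scaled by total counts (median 0.01 beside 0.05). Lsm5 was also the single gene whose groups did not overlap (1 of 10, against 42.9% of all tested genes in either direction). In the edgeR fit with TMM, the 95% interval of the change lay within 2-fold in both directions for 6 of the 10 (Lsm2, Lsm3, Lsm4, Lsm7, Ssb and Sart3). For the other 4 genes the interval reached past 2-fold, and these counts cannot show whether a change of that size was present. For Lsm3 the method mattered, as DESeq2 gave a log2FC of −0.02 with an SE of 0.52 (0.33 in edgeR). That interval reached past 2-fold.

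**Figure D1:**
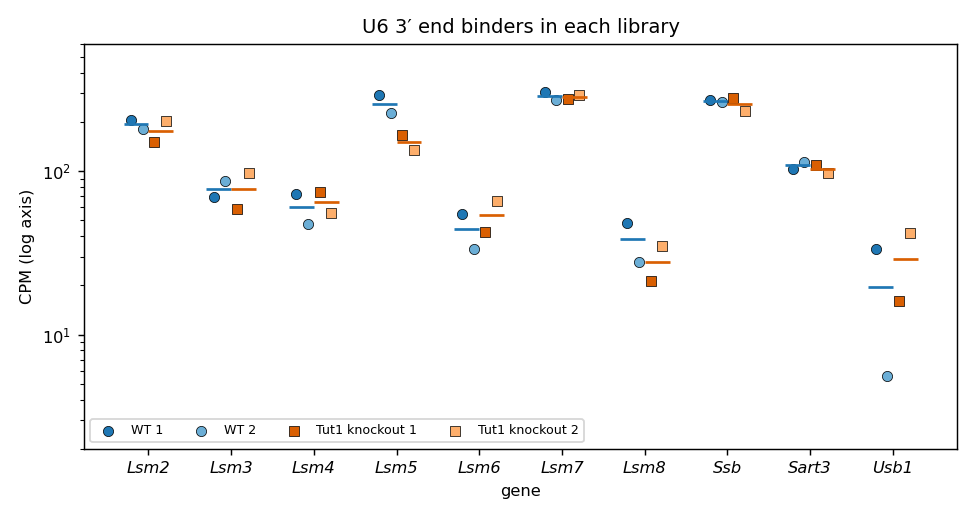
CPM (log axis) of the 10 genes in each library: circles are WT, squares are Tut1_KO libraries, and short lines are the means of 2 libraries. The Tut1_KO squares lie below both circles for Lsm5 (167 and 135 against 291 and 226 CPM) and overlap the circles for the other 9 genes.

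The targeted gene was examined first. Tut1 (chr19:8953847-8966210, plus strand) had 6 and 11 counts in WT replicates 1 and 2 against 29 and 25 counts in Tut1_KO. Its level was 24.4 ± 8.87 CPM in WT against 81.9 ± 6.90 CPM in the other group (SD, n = 2 each), a log2FC of 1.71 ± 0.40 (edgeR adjusted p = 0.0113). The group ranges did not meet. The floxed allele loses exon 2, and a count over the whole gene includes reads of the transcript that lacks this exon, so it does not check the deletion. The count went up where the label names a loss, and the groups are therefore named by their labels throughout. The call was lost at log2FC values of 1.80, 1.63 and 1.39 when Tut1_KO replicate 1, Tut1_KO replicate 2 or WT replicate 1 was left out (edgeR adjusted p = 0.200, 0.160 and 0.133), and also when libraries were thinned to the smallest (0.0908). DESeq2 gave Tut1 no adjusted p and an unadjusted one of 0.00794.

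The ring subunits are small proteins of 80 (LSm6) to 138 (LSm4) residues that share the Sm fold and sit side by side around the uridines. Lsm5 (chr6:56701063-56704710, minus strand, 5 exons) was the one subunit that separated the groups. It had 96 and 81 counts in the WT libraries, or 291 and 226 CPM, and 63 and 39 counts in the Tut1_KO libraries, or 167 and 135 CPM. Each Tut1_KO library was below both WT libraries, a pattern also seen in 20.8% of all tested genes. Its level was 259 ± 45.6 CPM in WT against 151 ± 22.6 CPM in Tut1_KO (SD, n = 2 each). Its log2FC of −0.75 ± 0.23 came with a 95% interval of −1.22 to −0.29. The unadjusted p was 0.00215 and the edgeR adjusted p 0.0729, so Lsm5 did not pass the test. By p it ranked 173 of 5878 genes. It was also the one gene of the 10 whose fold change exceeded the gap between replicates in both groups, 0.36 in WT and 0.31 in the other group on the log2 scale, as was so for 29.6% of all tested genes.

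The Lsm5 value varied with the libraries used. Over all alternatives its log2FC stayed below 0, from −0.94 to −0.57, with edgeR, limma-voom or DESeq2 adjusted p from 0.0554 to 0.703 and no call. Without WT replicate 1 it was −0.57 (edgeR adjusted p = 0.462), without Tut1_KO replicate 1 it was −0.93 (edgeR adjusted p = 0.302), and without Tut1_KO replicate 2 it was −0.62 (edgeR adjusted p = 0.388). WT replicate 1 was also the single library with Xist counts, 64, and without counts of Y-linked genes, which the other 3 libraries held at 41 to 78. Few counts lay on its pseudogenes. Gm10074 had 1, 1, 0 and 0 counts and Gm7846 had 2, 2, 2 and 4 in WT replicates 1 and 2 and Tut1_KO replicates 1 and 2. With these rows added to their parent genes the log2FC of Lsm5 was −0.72 (edgeR adjusted p = 0.0840).

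Marker genes of cell types also differed between the groups. Their counts of called genes are set beside the 2.06% of all tested genes called in either direction. The summed level of 9 pallial progenitor markers was 1983 to 2184 CPM in WT and 1276 to 1459 CPM in Tut1_KO, but 1 of the 7 tested was called, the transcription factor Lhx2, with 1054 and 760 CPM in WT and 282 and 368 CPM in Tut1_KO. Without Lhx2, singled out after its values were seen, the other 8 summed to 1130 to 1223 CPM in WT and 994 to 1091 CPM in Tut1_KO. The 7 markers of new neurons summed to 409 to 439 CPM in WT and 927 to 1010 CPM in Tut1_KO, with 2 of 6 tested genes called higher. Of markers of other cells, 6 microglia genes summed to 93.9 to 94.97 CPM in WT and 292 to 359 CPM in the other group (3 of 3 tested called higher), and 6 genes of mesenchyme and vessels to 121 to 240 and 313 to 436 CPM (1 of 4 called higher). Each of these markers had a count in at least 1 library. The 4 ventral forebrain genes analysed summed to 0 to 44.7 CPM in WT and 90.3 to 144 CPM in the other group, with 1 of 2 tested called higher. The sum of 6 red blood cell genes overlapped between groups (1324 to 1740 and 1434 to 2137 CPM), while its members differed, as the embryonic globin Hbb-bh1 was called lower (48.5 and 131 CPM against 10.6 and 45.2 CPM) and Hba-x stood at 45.4 and 67.0 CPM against 114 and 125 CPM without passing the test. In bulk tissue, fewer cells with a transcript and less of it per cell cannot be told apart. The part of these shifts in the Lsm5 value was not tested.

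Lsm7 (chr10:80852821-80855209, minus strand, 4 exons) had nearly the same level in both groups. Its counts of 101 and 97 in WT and 104 and 84 in Tut1_KO corresponded to 288 ± 24.7 and 284 ± 10.9 CPM (SD, n = 2 each). It gave a log2FC of −0.02 ± 0.19 (edgeR adjusted p = 0.978), and the 95% interval of the ratio ran from 0.749 to 1.29. More counts lay on another row with the same sequence. Gm10146, the pseudogene with the identical bases printed above, had 174, 142, 151 and 116 counts in WT replicates 1 and 2 and Tut1_KO replicates 1 and 2. Lsm7 thus held 36.7% (31.0 to 42.7%) and 40.6% (34.3 to 47.1%) of the counts on both rows in WT and 40.8% (34.7 to 47.1%) and 42.0% (35.1 to 49.2%) in Tut1_KO, with exact Clopper-Pearson intervals that cover counting error only. Mean shares were 38.7 ± 2.73% and 41.4 ± 0.860% (SD, n = 2 each; two-sided exact permutation p = 0.333, the smallest p that 2 against 2 libraries allow). The sum of both rows was 833 and 668 CPM in WT and 678 and 695 CPM in the other group. With the pseudogene rows added to their parents, the log2FC of Lsm7 was −0.13 ± 0.15 (edgeR adjusted p = 0.795). The further Lsm7 copies Gm13182, AC100212.6 and Gm32025 were not analysed here.

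**Figure D2:**
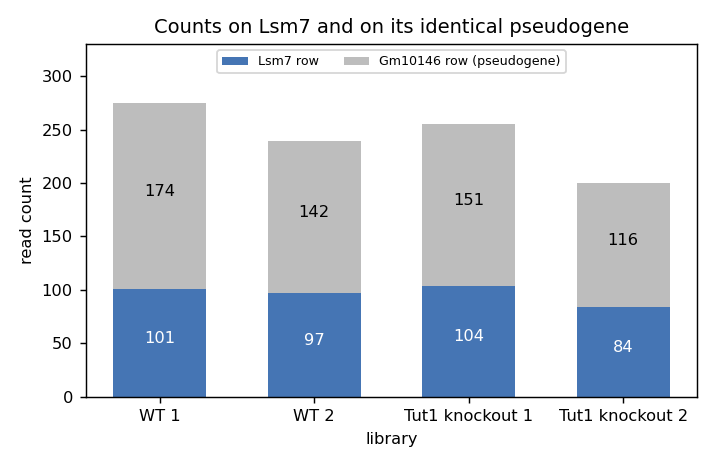
Read counts on the Lsm7 row (blue) and on the row of its identical processed pseudogene Gm10146 (grey), stacked, in each of the 4 libraries. The pseudogene row holds the larger part in every library, 116 to 174 counts against 84 to 104.

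Lsm2 (chr17:34981862-34985891, plus strand), which sits next to LSm3 in the ring, had 68 and 65 counts in WT against 57 and 58 in Tut1_KO. Its levels were 206 and 182 CPM against 151 and 201 CPM, so that Tut1_KO replicate 2 lay between the WT libraries. This amounted to a log2FC of −0.15 ± 0.24 (edgeR adjusted p = 0.853). Lsm3 (chr6:91515928-91522625, plus strand) had 23, 31, 22 and 28 counts in WT replicates 1 and 2 and Tut1_KO replicates 1 and 2. Its means of 78.1 ± 12.0 CPM and 77.9 ± 27.4 CPM (SD, n = 2 each) were nearly equal, but the Tut1_KO libraries were the lowest and the highest of the 4. The log2FC was −0.05 ± 0.33 (edgeR adjusted p = 0.977).

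Lsm4 (chr8:70673248-70678752, plus strand) encodes the longest of the ring subunits. It had 24 and 17 counts in WT against 28 and 16 in Tut1_KO, and its groups overlapped (72.7 and 47.5 CPM against 74.4 and 55.6 CPM). The log2FC was 0.14 ± 0.35 (edgeR adjusted p = 0.915). Lsm6 (chr8:78804865-78821140, minus strand) encodes the shortest subunit and had 18, 12, 16 and 19 counts in the same order of libraries, with a log2FC of 0.28 ± 0.40 (edgeR adjusted p = 0.838). The groups overlapped here too, at 54.5 and 33.5 CPM against 42.5 and 66.0 CPM. An Lsm6-like copy 92.1% identical to its coding sequence lies antisense within Zfp410, which had 43 to 59 counts per library, and since the use of strand in counting was not stated, reads of the copy and of Lsm6 cannot be told apart with certainty. The Lsm6 pseudogenes Gm12571, Gm10043, Gm2926 and Gm2531 were not analysed here.

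Lsm8 (chr6:18848579-18855751, plus strand) is the subunit that defines the nuclear, U6-bound ring. It had the fewest counts of the ring genes, with 16 and 10 counts in WT and 8 and 10 in Tut1_KO. Its levels of 48.5 and 27.9 CPM in WT and 21.3 and 34.7 CPM in the other group overlapped, and the log2FC of −0.47 ± 0.47 had a 95% interval from −1.43 to 0.49 (edgeR adjusted p = 0.735). Counting error alone was wide, for the 8 counts of Tut1_KO replicate 1 allow 3.45 to 15.8 counts (exact Poisson 95% interval). The log2FC ran from −0.84 without WT replicate 2 and −0.82 without Tut1_KO replicate 2 to −0.12 without Tut1_KO replicate 1 and −0.05 without WT replicate 1, and it was −0.76 with libraries thinned to the smallest.

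Lsm1 (chr8:25785288-25803975, plus strand), the subunit that replaces Lsm8 in the cytoplasmic ring, had 8 and 13 counts in WT against 17 and 8 in Tut1_KO. Its log2FC was 0.29 ± 0.46 (edgeR adjusted p = 0.852). Lsm8 held 66.7% (44.7 to 84.4%) and 43.5% (23.2 to 65.5%) of the counts of both genes in WT and 32% (14.9 to 53.5%) and 55.6% (30.8 to 78.5%) in Tut1_KO, with exact Clopper-Pearson intervals. The mean share was 55.1 ± 16.4% in WT and 43.8 ± 16.7% in the other group (SD, n = 2 each; two-sided exact permutation p = 0.667, where 0.333 is the smallest possible). The difference of −11.3 percentage points was smaller than the spread between replicates, and it rested on single libraries, at 0.30 and 0.48 points without WT replicate 1 or Tut1_KO replicate 1 and −22.9 and −23.1 points without WT replicate 2 or Tut1_KO replicate 2. A pseudogene of Lsm1, Gm15209, was not analysed here.

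Summed over the 7 subunits, the ring mRNAs reached 1048 and 874 CPM in WT and 792 and 882 CPM in Tut1_KO. The means were 961 ± 123 and 837 ± 63.8 CPM (SD, n = 2 each), a ratio of 0.871, and the groups overlapped. Lsm5 made up 27.7 and 25.9% of this sum in WT and 21.1 and 15.4% in the other group, whereas Lsm7 made up 29.2 and 31.0% and then 34.9 and 33.1%. Without Lsm5 the sums were 757 and 648 CPM in WT and 625 and 747 CPM in Tut1_KO. Although each ring holds its subunits in equal number, their counts, not corrected for length, were far from equal, and Lsm5 and Lsm7 together held the larger part in WT.

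The factors that meet U6 before and after the ring showed no called difference. Ssb (chr2:69861562-69871846, plus strand), which encodes the La protein of 415 residues, had 90 and 95 counts in WT against 105 and 67 in Tut1_KO. Its level was 269 ± 5.14 CPM in WT against 256 ± 32.8 CPM in the other group (SD, n = 2 each), and the Tut1_KO libraries lay on either side of both WT libraries. For Ssb the log2FC was −0.06 ± 0.20 with a 95% interval of −0.47 to 0.35 (edgeR adjusted p = 0.932). Mettl5 overlaps Ssb on the opposite strand and had 14, 4, 1 and 6 counts in WT replicates 1 and 2 and Tut1_KO replicates 1 and 2.

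Sart3 (chr5:113742446-113772510, minus strand, 19 exons) encodes the longest of these proteins, with 962 residues, which escorts U6 back into the U4/U6 snRNP. It had 34 and 41 counts in WT against 41 and 28 in Tut1_KO. The corresponding 103 and 115 CPM in WT overlapped with 109 and 97.3 CPM in the other group, and its log2FC was −0.07 ± 0.28 (edgeR adjusted p = 0.948).

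Usb1 (chr8:95332284-95347507, plus strand), the exonuclease that trims the tail TUT1 adds, had the fewest counts of the 10 genes, 11 and 2 in WT and 6 and 12 in Tut1_KO. Its WT libraries differed from each other 5.96-fold and its Tut1_KO libraries 2.61-fold. The 2 counts of WT replicate 2 allow 0.242 to 7.22 counts, and the 11 counts of WT replicate 1 allow 5.49 to 19.7 (exact Poisson 95% intervals). Its level was 19.5 ± 19.6 CPM in WT against 28.8 ± 18.2 CPM in the other group (SD, n = 2 each). The log2FC of 0.52 ± 0.62 had an interval of −0.74 to 1.78 (edgeR adjusted p = 0.797), a ratio between 0.599 and 3.43. Left without WT replicate 2 it was −0.30 and without WT replicate 1 it was 2.21, so its direction rested on single libraries. No difference was detectable with these counts.

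**Figure D3:**
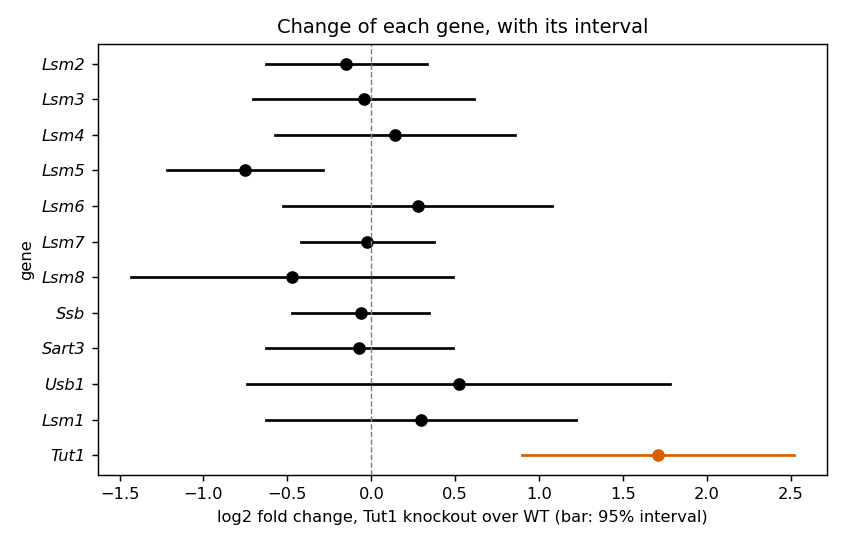
Log2 fold change of Tut1_KO libraries over WT (point) with its 95% interval (bar) for the 10 genes, Lsm1 and Tut1. Orange marks an adjusted p below 0.05, reached by Tut1 (1.71). The interval of Lsm5 (−1.22 to −0.29) lies below 0, and those of the other 9 genes and Lsm1 span 0.

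Levels were compared between genes as CPM per kb of the principal transcript, averaged over the 4 libraries. A long read can stand for 1 whole transcript whatever its length. In that case this scale places long transcripts such as Sart3, Lsm6 and Ssb too low, so the order depends on the scale. Lsm7 (612, range 579 to 654) was highest and exceeded Lsm5 (415, range 274 to 589) within each of the 4 libraries, although their ranges over both groups overlapped. Lsm2 followed at 220 CPM per kb (180 to 245), apart from both Lsm5 above it and Ssb below it. Ssb (131 CPM per kb, 116 to 139), Lsm3 (105, 78.7 to 131), Lsm4 (67.6, 51.3 to 80.4) and Lsm8 (41.0, 26.3 to 60.1) came next, each overlapping its neighbour. Below Lsm8 stood Sart3 at 23.8 CPM per kb (21.9 to 25.8), whose range did not reach that of Lsm8. Lsm6 at 23.3 (15.9 to 31.3), which did overlap with Lsm8, and Usb1 at 13.7 CPM per kb (3.18 to 23.7) overlapped with Sart3 and with each other. Within each of the 4 libraries Lsm4 exceeded Lsm8 and Lsm6 exceeded Usb1. Ssb exceeded Lsm3, and Lsm3 exceeded Lsm4, in 3 of them, and Sart3 exceeded Lsm6 in 2. By CPM, without length, Ssb ranked 2 in place of 4 and Sart3 ranked 5 in place of 8. Lsm8 ranked 9 in place of 7, below Lsm6 at 8 in place of 9. The value of Lsm7 excludes the counts on Gm10146.

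The genes around the binders were examined as lists fixed by function, also with earlier results of these data known. Their counts are set beside the 2.06% of tested genes called. Among 9 genes of U6 maturation 7 were tested and 1 was higher, Tut1 itself, with 0 lower. Mettl16, which methylates an adenosine within U6, had 69, 59, 106 and 83 counts in WT replicates 1 and 2 and Tut1_KO replicates 1 and 2, and a log2FC of 0.61 ± 0.21 that did not pass (edgeR adjusted p = 0.137). It was singled out after its values were seen, as the other gene of this list with an unadjusted p below 0.05.

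Of 17 proteins of the U4/U6 and tri-snRNP particles, the next stations of U6, 13 were tested and 0 were called, with log2FC values from −0.23 to 0.59 and a median of 0.04. Prpf3, a U4/U6 protein, had 147, 131, 231 and 173 counts in the same order of libraries. Its log2FC of 0.59 ± 0.17 had an edgeR adjusted p of 0.0548, and it was the one gene of this list with an unadjusted p below 0.05. It passed the test with libraries scaled by total counts (log2FC 0.65, edgeR adjusted p = 0.0285) and with limma-voom (0.59, adjusted p = 0.0424), and over the alternatives the adjusted p of Prpf3 reached 0.465, with DESeq2. Prpf8, the large scaffold of the spliceosome's centre, had 20, 21, 28 and 31 counts and a value of 0.58 ± 0.33 (edgeR adjusted p = 0.446).

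The Sm proteins, which form the related ring on U1, U2, U4 and U5, gave a comparison within the same fold. Of 8 genes 7 were tested and 0 were called, with 1 log2FC above 0 and 6 below and a median of −0.12, beside −0.05 for the 7 LSm subunits. By total counts it was 3 above and 4 below, with medians of −0.05 and 0.02. No test of this difference was made. Snrpg, with 1416, 1392, 1299 and 1094 counts, had a log2FC of −0.17 ± 0.10 (edgeR adjusted p = 0.454), and Snrpd3, with 9 to 18 counts, one of −0.39 ± 0.43 (edgeR adjusted p = 0.764).

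The remaining lists held 0 calls and no gene with an unadjusted p below 0.05. Of 9 genes of the LSm1-7 ring and mRNA decapping 7 were tested (median 0.12), and Dcp2, the decapping enzyme, had a log2FC of −0.27 ± 0.28 (edgeR adjusted p = 0.749). Of 6 other LSm proteins 4 were tested (median 0.11), with Lsm14a at −0.31 ± 0.26 (edgeR adjusted p = 0.661) and Lsm14b at 0.49 ± 0.46 (edgeR adjusted p = 0.700). Of 6 La-related proteins 4 were tested (median 0.07), with Larp4b and Larp4 both at 0.10 on the log2 scale. Of 7 exonucleases of oligo(U) and small RNA 3′ ends 2 were tested, Usb1 and Exosc10, a subunit of the nuclear exosome, at −0.27 ± 0.40 (edgeR adjusted p = 0.841). Of 12 genes of Sm and LSm assembly 5 were tested (median 0.24), with the arginine methyltransferase Prmt5 at 0.35 ± 0.31 (edgeR adjusted p = 0.689) and its partner Wdr77 at 0.30 ± 0.38 (edgeR adjusted p = 0.806).

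**Figure D4:**
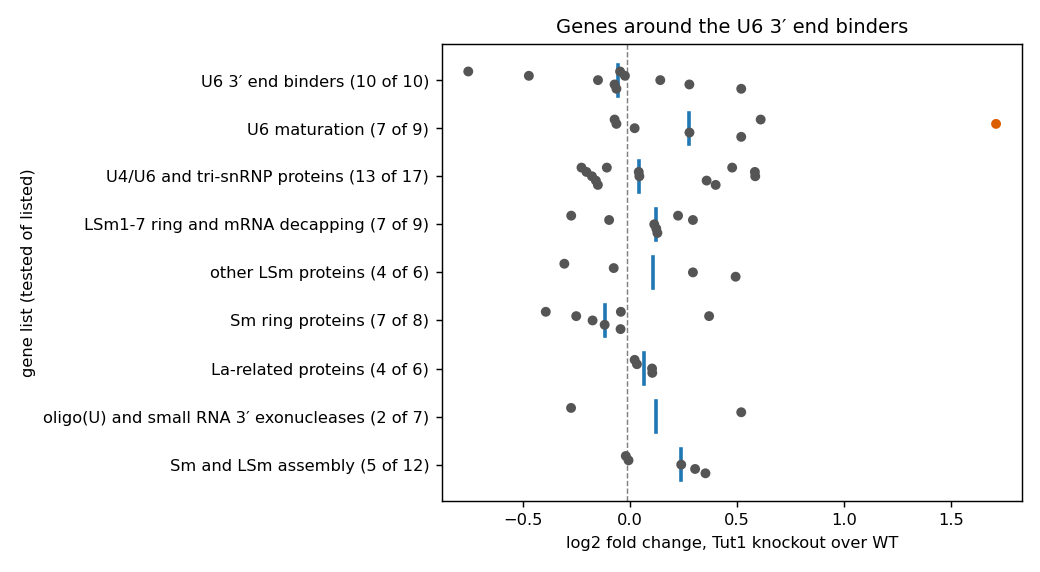
Log2 fold change of Tut1_KO libraries over WT for each tested gene (point) of 9 lists, with the list's median (blue line) and the median over all 5878 tested genes (dashed line). The single orange point, past an adjusted p of 0.05, is Tut1, and the lowest point is Lsm5 at −0.75.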

How the data were processed

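Dorsal and medial palliums of E11.5 embryos were measured in 2 WT libraries and 2 labelled Tut1_KO, grouped and numbered by the sample labels. The authors aligned Nanopore reads of poly(A)-enriched RNA to the Ensembl v102 mouse transcriptome with minimap2 v2.24 and processed them with FLAIR v2.0.0, and deposited raw read counts per gene without normalization. How isoforms were summed per gene, whether strand was used and how multi-mapping reads were counted are not given in the sources used here.

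Differential abundance was tested with edgeR 4.0.16 (R 4.3.3) on genes passing filterByExpr (minimum count 10, minimum total 15), scaled by TMM and compared with glmQLFit and glmQLFTest, two-sided, with Benjamini-Hochberg adjustment over 5878 genes and a threshold of 0.05. The common dispersion gave a biological coefficient of variation of 10.5%, with 2 residual and 37.5 prior degrees of freedom. CPM used TMM-scaled library sizes over tested genes. The SE of a log2FC was taken from its size and the F statistic, and intervals are 95%. Shares had exact Clopper-Pearson intervals and a permutation test (scipy 1.17.1). The intervals of shares and counts cover counting error only, whereas those of a log2FC include the spread between libraries.

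For positions, transcript lengths and coding sequences GENCODE M21 was used, which shares the authors' build, GRCm38. Near copies were sought with blastn 2.17.0 at 80% or more identity over 80% or more of a coding sequence.

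The members and lists were chosen with earlier results of these data known. Named were the 10 members, Tut1, Lsm1 and their near copies. From each list of genes around the binders, up to 5 called genes by smallest p were named, or otherwise the 2 with the smallest p. Outside this rule were Mettl16, Mettl5, which overlaps Ssb, and the markers Lhx2, Hbb-bh1 and Hba-x. Alternatives were median-of-ratios factors, total counts, no filter, 10 counts in 2 libraries, DESeq2 1.42.0, limma-voom (limma 3.58.1), the replicate number as a block, thinning to the smallest library, pseudogene rows added to parents and each library left out. The procedure was tested on simulated data. Isoforms and splicing were not analysed here. Beyond the sequences printed, 1 further sequence and the counts of genes matched to it are not reported here.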

Additional observations from a re-analysis of the deposited data

How the results depend on the processing

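None of the 10 genes was called under any alternative, although DESeq2 gave 4 of them no adjusted p. Genes called over the whole table numbered 121, and 12 with DESeq2, 23 when thinned to the smallest library, 76 with the replicate block, and 3 to 108 when one library was left out (75 with WT replicate 1 removed, 3 with Tut1_KO replicate 1 removed, and 35 for Tut1_KO replicate 2). The labels do not say whether same-numbered libraries shared more than a number. The correlation of their deviations (−0.06) cannot decide this with 2 libraries per group. With the replicate block Lsm5 was at −0.77 (edgeR adjusted p = 0.0979). The count of U6 maturation genes called went from 1 to 0 with DESeq2, which gave Tut1 no adjusted p, when thinned, and in 3 of 4 leave-one-out fits (range 0 to 1), where Tut1 was at 1.70 (edgeR adjusted p = 0.0908) when thinned. That of tri-snRNP genes became 1 under total counts and limma-voom. Total counts raised the median over all genes from −0.01 to 0.05, the higher share of calls from 67.8% to 81.4%, and turned Lsm3 to 0.017, Lsm7 to 0.040 and Ssb to 0.00038, while the members' median became 0.01. Leaving out one library moved Lsm2 from −0.35 to 0.058, Lsm3 from −0.42 to 0.31, Lsm4 from −0.15 to 0.46, Lsm6 from −0.050 to 0.65, Lsm7 from −0.12 to 0.058, Lsm8 from −0.84 to −0.048, Ssb from −0.21 to 0.053, Sart3 from −0.16 to 0.00069 and Usb1 from −0.30 to 2.21, all on the log2 scale. A group reduced to 1 library was assumed to vary like the other. Of the values of these genes and Tut1 under alternatives, 118 kept their direction and side of the threshold, 16 reversed and 4 lost the call. Low counts limited Usb1 (2 to 12 counts per library) and Lsm8 (8 to 16) most, and the 95% interval of each reached past 2-fold.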
